A study of Mus musculus with 10 samples.

Results

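The GABA-A receptor genes Gabra2, Gabra3, Gabra4, Gabra5, Gabrb1, Gabrb2 and Gabrd were followed in ribosome-bound RNA of striatal cholinergic neurons. They were chosen by symbol and make up 7 of the 32531 gene symbols in the count tables, and all 7 were measured in every library. The other 12 GABA-A subunit genes of the tables were kept as a comparison list. The RNA came from the whole striatum of adult Chat-EGFP/Rpl10a mice (line Chat-TRAP DW167). Their Chat transgene puts an EGFP-tagged ribosomal protein, Rpl10a, into cholinergic neurons. Every library of the study carried this transgene. Tagged polysomes were pulled down with antibodies against EGFP from mice that self-administered saline (3 libraries), mice that self-administered cocaine (3 libraries) and yoked controls (3 libraries). A single input library was made from the saline condition without that pull-down. The labels do not give the age in numbers or the sex, do not say what the yoked mice received, and do not say whether a library was made from 1 mouse or from a pool. If the replicates of a group come from the same mice or the same pool, the p-values measure technical spread only.

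GABA-A receptors are chloride channels built as pentamers, usually of alpha and beta subunits with a gamma or a delta subunit. The alpha subunit sets much of the drug sensitivity and the location of the channel: receptors with alpha2 sit mostly at synapses, while alpha4 with delta, and many receptors with alpha5, lie outside them and carry a steady, tonic current. In the striatum most neurons are GABA-releasing spiny projection neurons, and the much rarer cholinergic interneurons receive GABA from spiny neurons, from other interneurons and from outside the striatum.

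The pull-down libraries held 24526765 to 75220922 reads counted in genes, and the input held 40912230. Levels are given as CPM, the count of a gene scaled to a common library total, and on this scale 3 counts equal 0.0399 to 0.1223 CPM in the pull-down libraries. CPM is not corrected for transcript length, so levels were compared between libraries and not between genes. The cholinergic label was checked on 3 defining genes. Chat, the acetylcholine-making enzyme, had 10.09 CPM in the input and 476.8 to 698.0 CPM in the 9 pull-down libraries. Slc18a3, the vesicular acetylcholine transporter, had 8.359 CPM in the input against 419.1 to 1264 CPM, and Slc5a7, the choline transporter, had 34.61 against 1109 to 1602 CPM. All 12 cholinergic markers lay above the input in each of the 3 saline pull-down libraries, with a median log2 ratio of 5.27. No listed marker of other cells was at 0 in all 9 pull-down libraries, and from which cells these reads came was not tested. The median marker of each of the other 10 cell type lists was below the input, but single markers lay above it in all 3 saline libraries: 2 of 8 for D1 spiny neurons, 1 of 6 for D2 spiny neurons, 2 of 10 for other interneurons, 1 of 5 for oligodendrocyte precursors and 1 of 7 for microglia. The D1 list holds Isl1 and the D2 list holds Drd2, which cholinergic neurons also express. The summed D2 list was at 77.4% to 187% of the input, although 5 of its 6 markers were below the input in all 3 saline libraries. The 187% belongs to cocaine library 2 alone, at 2609 CPM against 1397 CPM in the input. The other pull-down libraries had 1082 to 1401 CPM. The 14 general spiny neuron markers summed to 14880 CPM in the input and to 12.5% to 22.3% of that in the pull-down libraries, with a median log2 ratio of -2.94 in the saline libraries. All 14 were below the input in each saline library.

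The start regions of 3 alpha genes are shown because their RNA lay on opposite sides of the input, Gabra3 above it and Gabra2 and Gabra5 below. Each window is RefSeq sequence (GRCm38.p6) from 250 bases before to 50 bases after an annotated transcript start, read 5′ to 3′ on the strand of the gene, which is the minus strand for all of them. Capitals mark each CG dinucleotide and the hexamer TATAAA, searched on both strands, so that its reverse complement TTTATA is in capitals too. The windows lie at chrX:72656870-72657169 for Gabra3, chr5:71095800-71096099 for Gabra2 and chr7:57510010-57510309 for Gabra5. Those of Gabra3 and Gabra2 cover the outer 5′ end of the gene. The Gabra5 window is at a start inside the gene, which spans 57407669 to 57591016, so the starts compared are not alike.
Gabra3: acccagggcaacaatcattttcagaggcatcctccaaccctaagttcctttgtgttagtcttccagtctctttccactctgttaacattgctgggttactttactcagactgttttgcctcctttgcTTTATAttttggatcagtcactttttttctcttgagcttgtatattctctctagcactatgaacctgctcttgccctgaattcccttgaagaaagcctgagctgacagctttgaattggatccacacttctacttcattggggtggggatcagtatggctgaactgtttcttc
Gabra2: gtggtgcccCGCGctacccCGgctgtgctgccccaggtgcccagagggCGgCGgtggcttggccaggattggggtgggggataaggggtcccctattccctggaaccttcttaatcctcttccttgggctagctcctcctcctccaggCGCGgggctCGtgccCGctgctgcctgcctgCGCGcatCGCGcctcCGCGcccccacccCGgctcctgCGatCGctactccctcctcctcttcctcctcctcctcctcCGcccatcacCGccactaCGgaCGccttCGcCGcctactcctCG
Gabra5: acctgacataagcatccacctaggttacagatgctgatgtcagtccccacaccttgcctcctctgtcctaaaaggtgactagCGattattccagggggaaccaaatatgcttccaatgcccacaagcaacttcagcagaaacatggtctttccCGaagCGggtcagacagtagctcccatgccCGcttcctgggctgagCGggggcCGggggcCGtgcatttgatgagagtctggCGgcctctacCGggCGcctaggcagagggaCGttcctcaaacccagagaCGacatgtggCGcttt
The Gabra3 window holds no CG and carries the hexamer once, on the opposite strand. Its GC content is 43.0%, against 70.0% with 25 CG dinucleotides in the Gabra2 window and 56.7% with 13 in the Gabra5 window. RefSeq windows were found for 6 of the 7 genes, 10 windows in all. Both Gabra3 windows, which share 188 bases, lack CG, and the other 8 hold 9 to 25 each. The hexamer is not particular to Gabra3: a window of Gabrb2, whose RNA lay below the input, carries it once on its own strand. Among 32817 mouse windows of the same length, 5.43% hold no CG, the median is 7, and 13.6% carry the hexamer on either strand. These are descriptions of the sequence, and no binding or methylation was measured.

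Gabra3 was the 1 gene of the 7 with more RNA in the cholinergic ribosome fraction than in the input. The other 5 called genes, Gabra2, Gabra4, Gabra5, Gabrb2 and Gabrd, had less, and Gabrb1 did not pass the test in either direction. The median log2 fold change of the 7 was -1.19, against -0.14 over all 17809 genes tested. In the same test 25.0% of all genes were called at an adjusted p under 0.05, 12.9% higher and 12.1% lower. The test was edgeR's quasi-likelihood test with Benjamini-Hochberg adjustment over all genes, with library-size scaling. The input has no replicate, so its spread was taken to equal that of the 9 pull-down libraries, and its sequencing lane (5, against 3 for the saline pull-downs) cannot be told apart from the fraction. Another scaling, TMM, moved the median of all genes to -0.03.

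**Figure D1:**
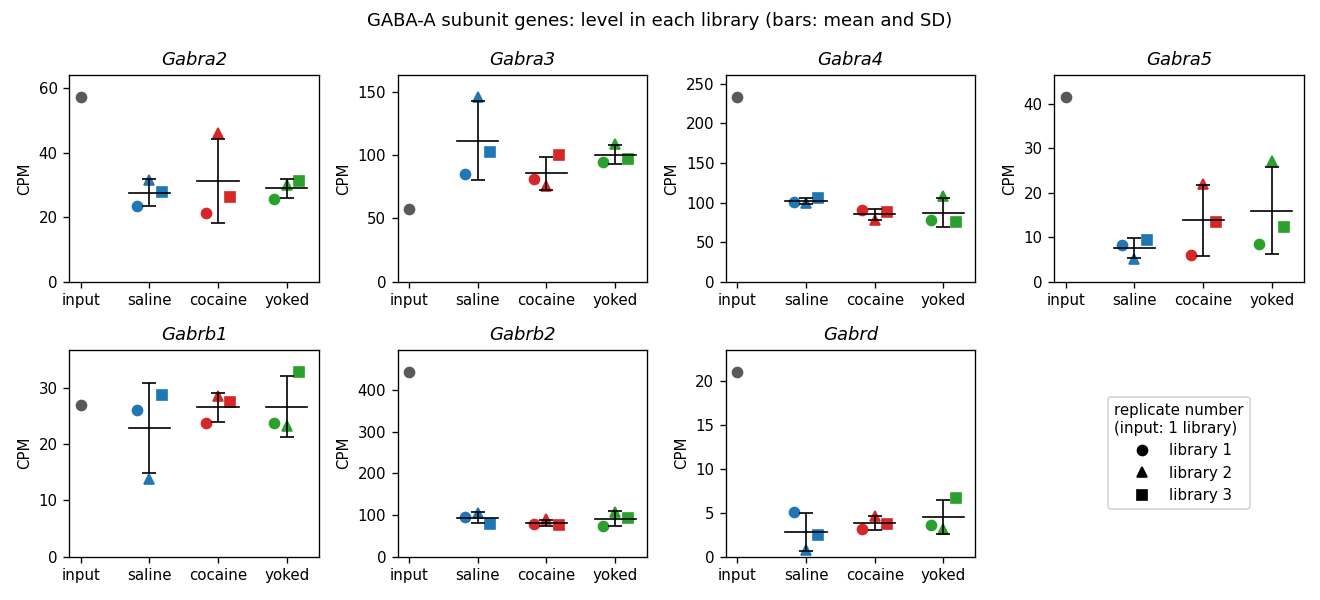
Level of each of the 7 genes in CPM (vertical axis, starting at 0, its own range per gene) in the input and in each pull-down library of the saline, cocaine and yoked groups. Points are libraries, with the shape giving the replicate number, and bars are mean and SD of 3 libraries; all 9 pull-down points of Gabra3 lie above its input point of 57.61 CPM, and all 9 of Gabrb2 lie far below its input point of 443.5 CPM.

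Among the alpha genes, Gabra3 encodes a subunit that has been described in cholinergic and monoaminergic neurons. It lies on chromosome X at 72432676 to 72656919, minus strand (GRCm38.p6). Its input level was 57.61 CPM, with a 95% Poisson interval of 55.31 to 59.98 that covers counting error only. The saline pull-down libraries 1, 2 and 3 had 85.36, 146.0 and 102.7 CPM. Cocaine libraries had 80.93, 75.55 and 100.5 CPM and yoked libraries 94.87, 109.1 and 97.25 CPM. All 9 were above the input, and saline library 2 was the highest. In the saline libraries Gabra3 was 1.88-fold higher than in the input (mean log2 ratio 0.91 ± 0.39 SD, n = 3). The edgeR log2 fold change was 0.95 with a 95% interval of 0.31 to 1.60 and an adjusted p of 0.0317. This call rests in part on saline library 2, without which the log2 fold change was 0.71 and the adjusted p 0.0741. It was also lost when only the saline libraries and the input were fitted, at an adjusted p of 0.0576.

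Gabra4 encodes an alpha subunit of extrasynaptic receptors that classical benzodiazepines do not act on. It lies on chromosome 5 at 71569734 to 71658308, minus strand. The input level was 233.5 CPM. The saline libraries had 100.9, 99.53 and 105.9 CPM, the tightest group of the 7 genes relative to its mean. Cocaine libraries had 90.43, 77.41 and 88.01 CPM and yoked libraries 77.96, 108.1 and 75.16 CPM, so all 9 lay below the input. Gabra4 was 2.29-fold lower in the saline libraries (mean log2 ratio -1.19 ± 0.05 SD, n = 3). By edgeR the log2 fold change was -1.19, with a 95% interval of -1.69 to -0.69 and an adjusted p of 0.00154.

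Gabra2, on chromosome 5 at 70958392 to 71095849 (minus strand), encodes a synaptic alpha subunit through which benzodiazepines lessen anxiety. It had 57.34 CPM in the input. Its saline libraries had 23.35, 31.72 and 27.77 CPM, its cocaine libraries 21.20, 46.10 and 26.39 CPM, and its yoked libraries 25.63, 30.00 and 31.23 CPM. All 9 were below the input, with cocaine library 2 the closest to it. In the saline libraries Gabra2 was 2.09-fold lower (mean log2 ratio -1.07 ± 0.22 SD, n = 3), and the edgeR log2 fold change was -1.05 (95% interval -1.80 to -0.31, adjusted p = 0.0381). This call was lost with TMM scaling (adjusted p = 0.0692), without saline library 1 (0.0896) and without saline library 3 (0.0780).

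Gabra5, known for extrasynaptic receptors in the hippocampus and for a tonic current in striatal spiny neurons, lies on chromosome 7 at 57407669 to 57591016, minus strand. It had 41.53 CPM in the input. The saline libraries had 8.278, 5.059 and 9.453 CPM, the cocaine libraries 6.116, 21.95 and 13.36 CPM, and the yoked libraries 8.549, 27.03 and 12.41 CPM. Every pull-down library was below the input, and the libraries numbered 2 of the cocaine and yoked groups were the highest. Gabra5 was 5.66-fold lower in the saline libraries (mean log2 ratio -2.50 ± 0.48 SD, n = 3). The edgeR log2 fold change was -2.45, with a 95% interval of -3.68 to -1.22 and an adjusted p of 0.00577.

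The beta subunits line the GABA binding site together with the alpha subunits. Gabrb2 lies on chromosome 11 at 42419515 to 42632591, plus strand. It had 443.5 CPM in the input, where it was the most read of the 7 genes. The saline libraries had 95.36, 104.8 and 78.76 CPM, the cocaine libraries 78.20, 89.59 and 74.89 CPM, and the yoked libraries 72.66, 107.9 and 93.03 CPM. The 9 pull-down values overlapped between all groups and were all far below the input. Gabrb2 was 4.80-fold lower in the saline libraries (mean log2 ratio -2.26 ± 0.21 SD, n = 3), with an edgeR log2 fold change of -2.25 (95% interval -2.76 to -1.75, adjusted p = 8.23e-06).

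Gabrb1, a beta subunit also found in glial cells, lies on chromosome 5 at 71657921 to 72149572, plus strand, head to head with Gabra4. Its level was 26.91 CPM in the input. The saline libraries had 26.05, 13.81 and 28.76 CPM, the cocaine libraries 23.69, 28.65 and 27.44 CPM, and the yoked libraries 23.83, 23.31 and 32.90 CPM. The pull-down values lay on both sides of the input, 4 of 9 above it, and saline library 2 was the lowest. The mean log2 ratio in the saline libraries was -0.30 ± 0.57 (SD, n = 3). The edgeR log2 fold change was -0.23 with an adjusted p of 0.688, and its 95% interval of -1.03 to 0.56 leaves room for changes of either sign. Without saline library 2 the log2 fold change was 0.027.

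Gabrd encodes the delta subunit, which takes the place of gamma in extrasynaptic receptors, often beside alpha4. It lies on chromosome 4 at 155384979 to 155398098. It had 21.09 CPM in the input. The saline libraries had 5.076, 0.7637 and 2.423 CPM, the cocaine libraries 3.099, 4.653 and 3.697 CPM, and the yoked libraries 3.656, 3.095 and 6.733 CPM. All 9 were below the input, and saline library 2 was the lowest. The mean log2 ratio in the saline libraries was -3.32 ± 1.38 (SD, n = 3), the lowest of the 7 genes. By edgeR the log2 fold change was -2.94 (95% interval -4.43 to -1.46, adjusted p = 0.00585). Without saline library 1 it was -3.72, and without saline library 2 it was -2.50.

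In bulk RNA of this kind, fewer cells of a type and less RNA per cell cannot be told apart. The general spiny neuron markers and 5 of these 7 genes were lower in the same libraries. The part of any remaining spiny neuron RNA in the levels of the 7 genes was not tested. Some of the genes share bases with a neighbour in RefSeq: Gabra4 and Gabrb1 by 388 bases, Gabra5 and a neighbouring gene by 499 bases, and Gabrd and Cfap74 by 6000 bases. Reads there cannot be assigned with certainty, because the strand setting of the counting is not given in the sources used here.

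The mean log2 ratio to the input had the same sign in all 3 treatment groups for each of the 7 genes. The mean log2 ratio of Gabra3 was 0.91 in saline, 0.56 in cocaine and 0.80 in yoked libraries. The other alpha genes were negative in all groups, with Gabra5 at -2.50, -1.77 and -1.55 in that order. Gabrb1 was close to 0 in the cocaine and yoked libraries, at -0.02 and -0.03. These ratios share the single input library and are given side by side as a description.

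**Figure D2:**
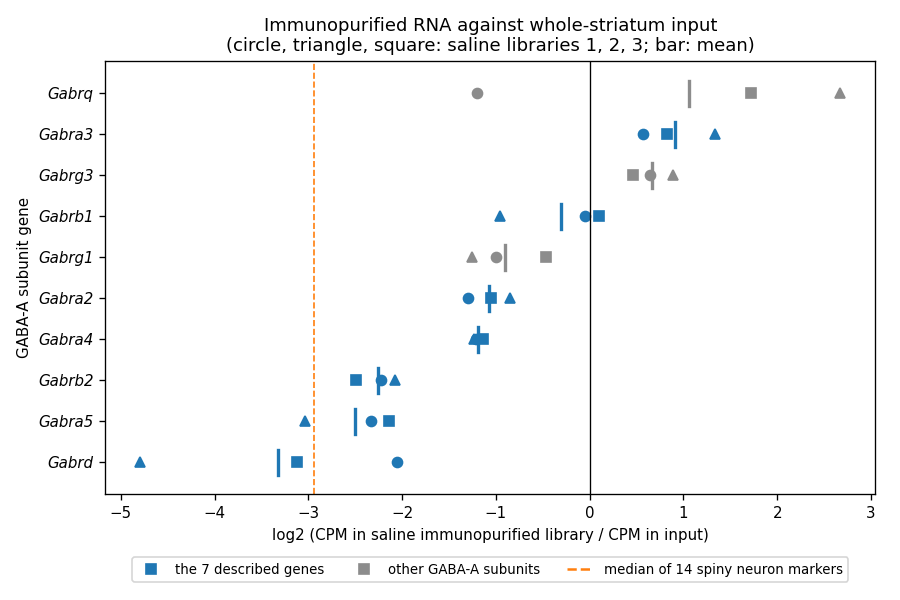
Log2 ratio of CPM in each saline pull-down library to CPM in the input (horizontal axis) for the 7 described genes (blue) and other GABA-A subunit genes at or above 1 CPM (grey), ordered by the mean of 3 libraries (bar). The dashed line is the median of 14 spiny neuron markers at -2.94; Gabra3 lies to the right of 0 in all 3 libraries and Gabrb2, Gabra5 and Gabrd lie left of -2.

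The share of each gene in the reads of all 7 shows how the set was composed. Gabra3 made up 6.54% of the 7 genes' summed CPM in the input and 30.0% ± 5.86 (SD, n = 3) in the saline pull-down libraries, 23.5 percentage points more. Its share ranged from 22.0% to 36.3% over the 9 pull-down libraries. Gabrb2 went the other way, from 50.3% in the input to 25.3% ± 2.86 in the saline libraries. Gabra4 held about the same share in both, 26.5% in the input and 27.9% ± 2.76, although its level was lower. These shares are of reads and follow transcript length as well as transcript number. They also depend on the genes counted: of the reads of all 19 subunit genes, Gabra3 had 2.79% in the input and 11.6% ± 1.97 in the saline libraries, 8.81 points more. The sum over the 7 genes was 881.5 CPM in the input, 367.3 ± 30.35 CPM in saline, 327.3 ± 21.0 CPM in cocaine and 354.8 ± 51.0 CPM in yoked libraries (SD, n = 3 each), so the higher share of Gabra3 stood within a smaller total.

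**Figure D3:**
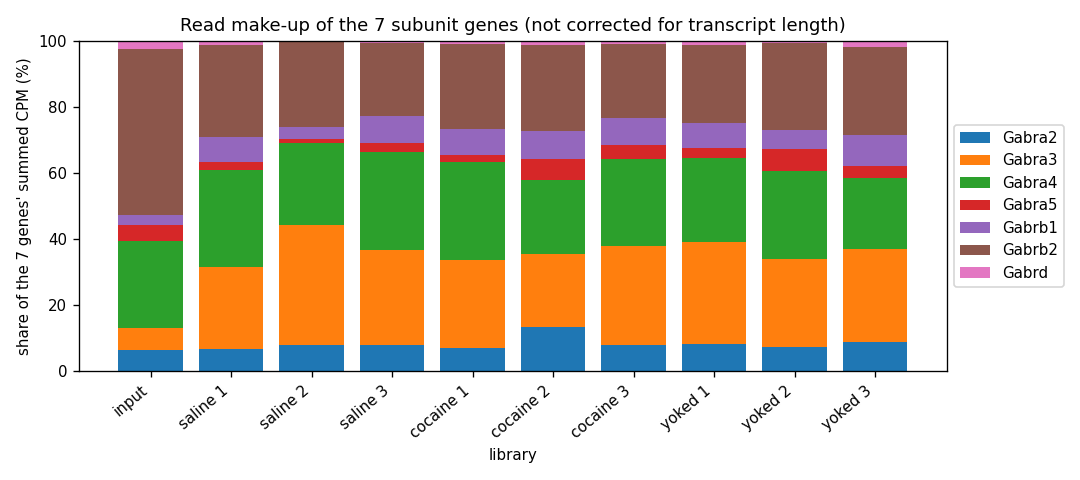
Share of each of the 7 genes in their summed CPM (vertical axis, percent, stacked to 100%) in the input and in each of the 9 pull-down libraries, not corrected for transcript length. The Gabra3 segment takes 6.54% of the input and 22.0% to 36.3% of the pull-down libraries, and the Gabrb2 segment takes 50.3% of the input and 22.1% to 27.7% of the pull-down libraries.

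Within the alpha class the share of Gabra3 differed in the same direction. Of the reads of all 6 alpha genes, Gabra3 had 9.90% in the input and 38.7% ± 6.77 (SD, n = 3) in the saline libraries, and 28.3% to 46.5% over the 9 pull-down libraries. Gabra5 had 7.14% in the input and 2.73% ± 0.970 in the saline libraries, and Gabra2 had 9.85% and 9.68% ± 0.399.

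Of the 12 other subunit genes, 10 could be tested against the input, and 2 were lower, none was higher and 8 did not pass. Their median log2 fold change was 0.09. Among all genes tested, 12.1% were called lower and 12.9% higher. Gabrg3, a gamma subunit gene, was not called. It had 35.44 CPM in the input and 56.65 ± 8.45 CPM in the saline libraries and lay above the input in all 9 pull-down libraries, with an edgeR log2 fold change of 0.68 and an adjusted p of 0.297. Gabrg1 had 18.41 and 10.1 ± 2.90 CPM and was not called either (edgeR log2 fold change -0.86, adjusted p = 0.256). Gabrq, which encodes the theta subunit, had 0.8066 CPM in the input and 2.712 ± 2.386 CPM in the saline libraries (edgeR adjusted p = 0.388).

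Genes for proteins that anchor and move GABA-A receptors were split. Of 23 genes on this list, 7 were higher than in the input, 5 were lower and 11 did not pass. Among all 17809 genes tested, 12.9% were called higher and 12.1% lower. The list had a median log2 fold change of 0.21 on the scale where all genes had -0.14. Mdga1, a membrane protein that binds neuroligin-2, went from 11.05 CPM in the input to 248.8 ± 80.3 CPM in the saline libraries (edgeR log2 fold change 4.49, adjusted p = 1.84e-06). Iqsec3, a gephyrin-binding exchange factor of inhibitory synapses, went from 74.11 to 544.6 ± 18.8 CPM (2.88, edgeR adjusted p = 4.11e-06). Gabarap, which links GABA-A receptors to membrane traffic, had 149.5 CPM in the input and 438.7 ± 38.2 CPM in the saline libraries (1.55, edgeR adjusted p = 8.37e-04). Its relatives Gabarapl2 and Gabarapl1 were higher by log2 fold changes of 1.71 and 0.93. Clptm1, which holds receptors back in the cell, was higher by 0.92, a call that was lost without saline library 2 (edgeR adjusted p = 0.0513) or saline library 3 (0.0887). The remaining higher gene was Nlgn2, neuroligin-2, the adhesion protein of inhibitory synapses, at 116.9 and 214.3 ± 38.1 CPM; it lies outside the naming rule and was named after its value was seen.

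The lower genes of that list included the gene of the scaffold itself. Gphn, gephyrin, had 87.8 CPM in the input and 34.1 ± 8.50 CPM in the saline libraries (edgeR log2 fold change -1.37, adjusted p = 0.00186). Shisa7, an auxiliary protein of GABA-A receptors, had 206.4 and 32.5 ± 6.61 CPM (-2.67, edgeR adjusted p = 7.66e-06). Plcl1 and Plcl2, which bind GABA-A beta subunits and Gabarap, were lower by log2 fold changes of -1.60 and -1.79.

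Against shares of 12.9% higher and 12.1% lower over all genes tested, a list of 16 genes covered GABA synthesis, transport, chloride and GABA-B receptors. Of these 16, 1 was higher, 6 were lower and 9 did not pass, with a median log2 fold change of -1.03. The higher gene was Gabbr1, a GABA-B receptor subunit, at 490.6 CPM in the input and 1114 ± 182 CPM in the saline libraries (edgeR log2 fold change 1.18, adjusted p = 0.00678). Its partner Gabbr2 did not pass (0.16). Slc32a1, the vesicular GABA transporter, had 67.93 CPM in the input and 6.371 ± 1.498 CPM in the saline libraries (-3.41, edgeR adjusted p = 4.19e-06). The astrocytic GABA transporter Slc6a11 was lower by -2.94, the GABA-B auxiliary gene Kctd12 by -2.35 and the chloride importer Slc12a2 by -1.59. Slc6a13, a transporter of the brain's coverings, had 1.809 CPM in the input and at most 0.1455 CPM in any pull-down library, and its call was lost without saline library 1 (edgeR adjusted p = 0.0884) or saline library 3 (0.103). The GABA-making enzymes Gad1 and Gad2 (-0.43 and -0.28) and the chloride exporter Slc12a5 (-0.46) did not pass.

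**Figure D4:**
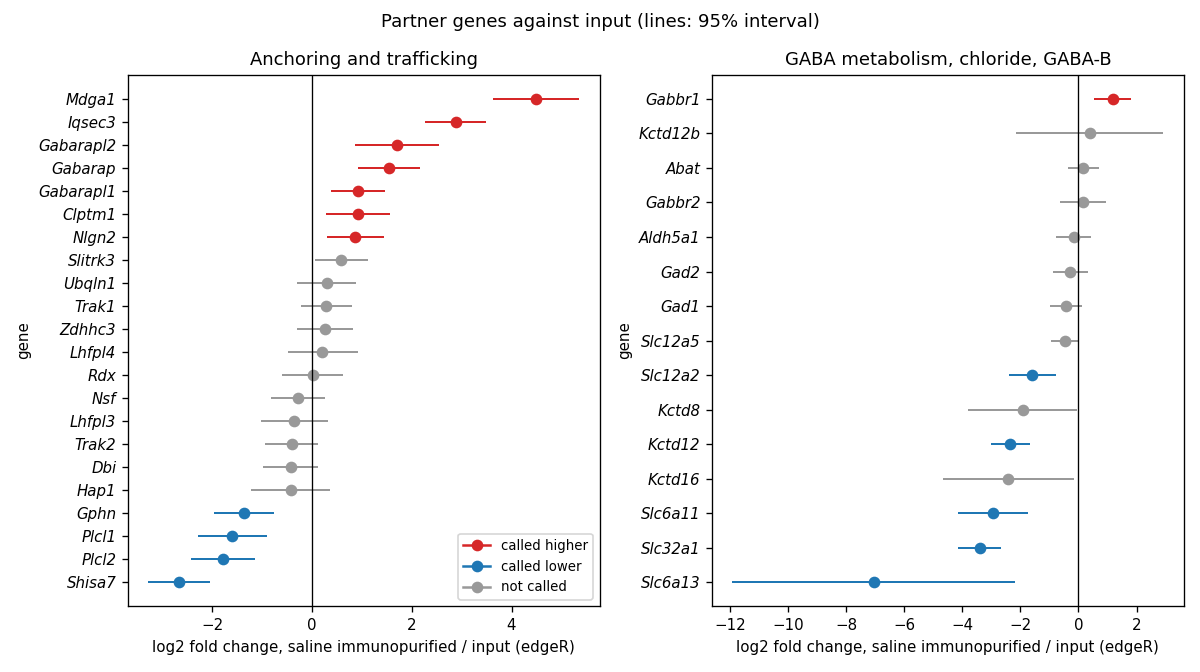
Log2 fold change of saline pull-down libraries against the input (horizontal axis, edgeR, lines are 95% intervals) for anchoring and trafficking genes (left) and genes of GABA metabolism, chloride transport and GABA-B receptors (right). Red marks genes called higher, blue genes called lower and grey genes that did not pass; Mdga1 at 4.49 is the highest on the left and Slc6a13, whose pull-down counts were near 0, the lowest on the right.

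Neither cocaine nor the yoked condition gave a called change in the 7 genes. With 3 libraries per group, 0 of the 7 passed an adjusted p under 0.05 in cocaine against saline, in cocaine against yoked and in yoked against saline, and the same held for a test of any difference among the groups. Among all 14989 genes tested, the share called was 0% in each of these comparisons. At an unadjusted p under 0.05 there were 791 genes (5.28%) in cocaine against saline, 391 (2.61%) in cocaine against yoked and 327 (2.18%) in yoked against saline. The corresponding counts among the 7 genes were 0, 0 and 1. DESeq2 and limma voom also called 0 genes in each comparison. The test was edgeR's quasi-likelihood test with TMM scaling. The saline pull-downs ran in lane 3 and the cocaine and yoked pull-downs in lane 4, so in both comparisons with saline a lane effect and a treatment effect cannot be told apart. The comparisons share groups, and their values for a gene are not independent.

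The gene with an unadjusted p under 0.05 was Gabra5. Its mean was 7.597 ± 2.275 CPM in saline, 13.8 ± 7.93 CPM in cocaine and 16.0 ± 9.75 CPM in yoked libraries (SD, n = 3 each), and the groups overlapped. In yoked against saline its edgeR log2 fold change was 1.03 (95% interval 0.01 to 2.04, adjusted p = 0.9993), and in cocaine against saline 0.89 (-0.12 to 1.90, adjusted p = 0.8503). The yoked difference rests on yoked library 2 at 27.03 CPM. Without that library the log2 fold change was 0.48, and without all 3 libraries numbered 2 it was 0.25. The cocaine difference rests on cocaine library 2 at 21.95 CPM: it was 0.35 without that library, 0.12 without all 3 libraries numbered 2 and 0.28 with limma voom. Summed cortical glutamatergic markers, 6 genes that were all far below the input, ranged from 16.06 to 29.37 CPM in saline, 17.87 to 38.95 in cocaine and 8.044 to 29.01 in yoked libraries, against 411.7 CPM in the input. None of the 6 was at 0 in all pull-down libraries. Cocaine libraries 1 and 2 had sums of 37.63 and 38.95 CPM, with Gabra5 at 6.116 and 21.95 CPM. Saline library 2 and yoked library 2 had sums of 29.37 and 29.01 CPM, with Gabra5 at 5.059 and 27.03 CPM. Summed markers of other striatal interneurons were highest in cocaine library 2, at 262.5 CPM, with yoked library 2 at 157.1 CPM. The D2 list was highest in cocaine library 2 (2609 CPM) and lowest in yoked library 2 (1082 CPM). Summed endothelial and mural markers were highest in yoked library 2, at 33.82 CPM, with cocaine library 2 at 16.66 CPM. The remaining marker lists were not set beside Gabra5, and the part of any of these cells in its values was not tested.

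Gabra4 was the 1 gene of the 7 whose cocaine and saline libraries did not overlap, a state found in 10.3% of all genes in that comparison. All 3 cocaine values, up to 90.43 CPM, were below the lowest saline value of 99.53 CPM. The means were 85.3 ± 6.93 and 102.1 ± 3.37 CPM (SD, n = 3 each), and the edgeR log2 fold change was -0.25 (95% interval -0.59 to 0.10, adjusted p = 0.8527). None of the 7 was without overlap in cocaine against yoked or in yoked against saline, where 6.78% and 7.05% of all genes were. The yoked Gabra4 mean was 87.1 ± 18.3 CPM, with library 2 above all saline libraries.

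For the other genes the 95% intervals, each for 1 gene and not adjusted, give the range of log2 fold changes. In the comparisons with saline they cover lane and treatment together. Gabra3 had group means of 111.4 ± 31.2 CPM in saline, 85.65 ± 13.1 CPM in cocaine and 100.4 ± 7.64 CPM in yoked libraries, and its log2 fold change in cocaine against saline was -0.36 (95% interval -0.77 to 0.05). That value rests on saline library 2, and was -0.14 without it and -0.067 without all 3 libraries numbered 2. Gabrb2 means were 93.0 ± 13.2, 80.9 ± 7.71 and 91.2 ± 17.7 CPM in that order, with a cocaine against saline value of -0.18 (-0.56 to 0.20). Gabra2 means were 27.6 ± 4.19, 31.2 ± 13.1 and 28.95 ± 2.94 CPM, and its value of 0.21 (-0.37 to 0.80) turned to -0.21 without cocaine library 2. Order among the groups was therefore within the spread for these genes. Gabrb1 means were 22.9 ± 7.97, 26.6 ± 2.59 and 26.7 ± 5.40 CPM, with 0.23 (-0.36 to 0.82) in cocaine against saline. Gabrd, the least read of the 7, had 2.754 ± 2.175, 3.816 ± 0.784 and 4.495 ± 1.959 CPM, and its interval of -0.78 to 1.79 around 0.50 was the widest. Against yoked controls, cocaine gave log2 fold changes between -0.20 and 0.16 for the 7 genes.

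**Figure D5:**
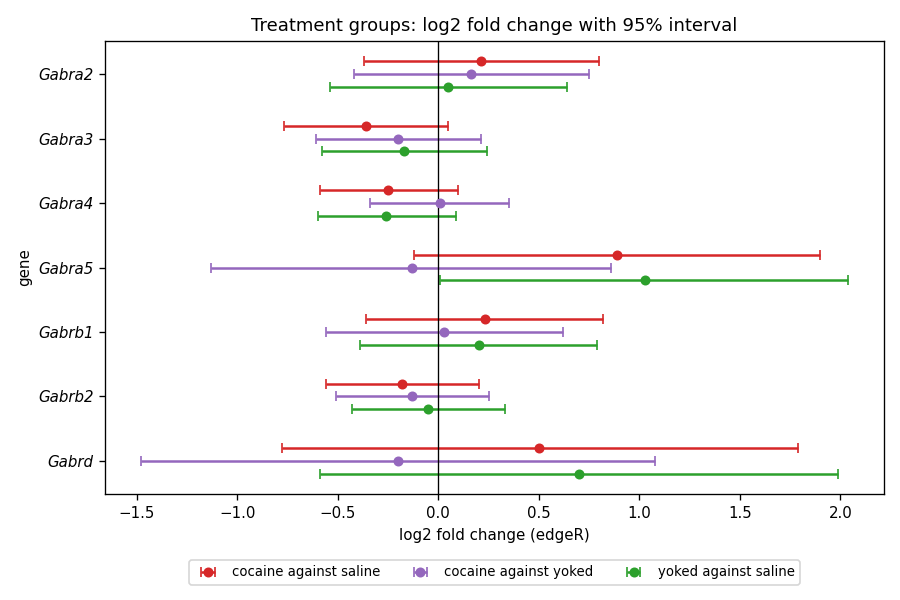
Log2 fold change (horizontal axis, edgeR, lines are 95% intervals) of each of the 7 genes in cocaine against saline (red), cocaine against yoked (purple) and yoked against saline (green), 3 libraries per group. The intervals of all genes include 0 except that of Gabra5 in yoked against saline, which runs from 0.01 to 2.04 and whose adjusted p is 0.9993.

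Other genes of the GABA lists were not called by treatment either. In the anchoring list the smallest unadjusted p belonged to Ubqln1, which binds and stabilizes GABA-A subunits, in cocaine against saline (log2 fold change -0.40, edgeR adjusted p = 0.8503), to Hap1, which carries receptors to the synapse, in cocaine against yoked (-0.56, edgeR adjusted p = 0.9997) and to Shisa7 in yoked against saline (0.56, edgeR adjusted p = 0.9993). In the metabolism list it was Slc32a1 in both comparisons with saline. Slc32a1 had 6.371 ± 1.498 CPM in saline, 12.1 ± 2.23 CPM in cocaine and 12.97 ± 0.983 CPM in yoked libraries, with saline not overlapping either group. Among all genes tested, groups did not overlap for 10.3% in cocaine against saline and 7.05% in yoked against saline. Both comparisons use the same saline libraries, and lane and treatment cannot be told apart in them. The edgeR log2 fold changes of Slc32a1 were 0.94 (adjusted p = 0.8503) and 1.01 (adjusted p = 0.9993), which do not pass. In cocaine against yoked it was Abat, the GABA-degrading enzyme, at -0.20 (edgeR adjusted p = 0.9997).

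Over the 9 pull-down libraries, the genes whose levels were most like each of the 7 were found among 10247 genes with a mean of at least 5 CPM, by Pearson's r of log2(CPM + 0.5). Gabra3 was most like Pla2g15, Adam15 and Zfp651, each with r = 0.98. For Gabra2 they were Gm29766, Lrrc8d and Pclo (0.97 each), and for Gabra5 Gpn1 (0.98), Gas8 (0.97) and Ntn4 (0.96). Gabra4 was followed by Ifit2 (0.93), Gm14295 (0.92) and Snx13 (0.91). For Gabrb1 the genes were Kcnf1 (0.96), Tesc (0.96) and Tsr1 (0.95), and for Gabrb2 Pkd2 (0.96), Trmu (0.92) and Adal (0.89). Gabrd was below the level required. None of the 7 was among the closest genes of another. The points share library, depth and treatment, so the names are a description only.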

How the data were processed

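Reads were aligned with STAR 2.0.0e to mm10 and counted per gene with HTSeq, per the submitters' processing notes, and the authors deposited raw counts per gene for each of the 10 libraries. Library totals leave out reads not assigned to 1 gene. The largest such class, alignments that were not unique, was 36.259% to 57.066% in the pull-down libraries and 35.404% in the input. It was 36.402% in saline library 2 and 36.259% in yoked library 2, and 46.491% to 57.066% in the other pull-down libraries. A further 7.039% to 11.249% in the pull-down libraries had no feature and 0.976% to 1.837% were ambiguous, against 15.25% and 4.487% in the input. Treatment groups were compared in 1 fit over the 9 pull-down libraries (edgeR 4.0.16, R 4.3.3, robust quasi-likelihood, TMM, filterByExpr with minimum count 10) and the fraction in 1 fit over 10 libraries with library-size scaling. Positions come from RefSeq, which matched 22961 of 32531 symbols. The scripts were tested on simulated data. Alternatives used DESeq2 1.42.0 and limma 3.58.1, other scaling and filters, a replicate block and left-out libraries.

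The 7 genes and all lists were chosen with earlier results of these data known. Named beside the 7 were other subunits at or above 1 CPM in the input or saline pull-downs, called genes of the 2 partner lists (up to 6 per direction by size), and, for treatment, the gene of smallest p per list. Some listed genes enter the counts and are not reported here by name.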

Additional observations from a re-analysis of the deposited data

How the results depend on the processing

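Of the 7 genes, 6 were called against the input, and 5 to 6 were called under the 8 alternatives, with no called gene changing sign. Gabrb1, which was not called, ranged from -0.43 to 0.027 when each saline library was left out. With all 19 subunits in the denominator the share of Gabra3 was 8.81 points above that in the input, against 23.5 points among the 7 genes. Leaving out a saline library gave 20.3 to 26.1 points among the 7. Shares per kilobase were not run, as no transcript lengths were at hand.

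By treatment, 0 of the 7 genes were called under any alternative. Without a filter on low counts, 60 genes were called in cocaine against saline, 27 in cocaine against yoked, 18 in yoked against saline and 98 for any group, where the main test called 0; the cause was not tested. The main fit did not use the libraries' numbers as pairs, although same-numbered libraries were more alike. Their deviations from the group mean correlated at 0.05 to 0.295 over 9 pairs, 6 of them over 0.1. The 18 other pairs correlated at -0.199 to 0.09, 0 of them over 0.1, and 8 of 9 libraries correlated best with their own number. What the numbers share was not tested. With the replicate block 0 genes were called in each comparison, and Gabra5 in yoked against saline was 0.80 with a 95% interval of -0.17 to 1.76, which includes 0, so that no gene of the 7 had an unadjusted p under 0.05 there.

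Signs of uncalled genes turned as follows, on the log2 scale. In cocaine against saline Gabra2 was -0.091 with limma voom and -0.12 without the 3 libraries numbered 2, where Gabrb1 was -0.11 and Gabrd -0.14. In cocaine against yoked Gabra2 was -0.17 with voom and -0.28 without those 3, Gabrb1 -0.059 and -0.17, and with library-size scaling Gabra4 was -0.03 and Gabrb1 -0.0033. In yoked against saline Gabra3 was 0.042 without those 3. Leaving out 1 library gave, in cocaine against saline, -0.21 to 0.44 for Gabra2 and -0.035 to 0.45 for Gabrb1. In cocaine against yoked it gave -0.27 to 0.39 for Gabra2, -0.074 to 0.16 for Gabra4, -0.68 to 0.43 for Gabra5, -0.084 to 0.22 for Gabrb1 and -0.43 to 0.23 for Gabrd. In yoked against saline it gave -0.063 to 0.15 for Gabra2, -0.33 to 0.061 for Gabra3, -0.066 to 0.42 for Gabrb1 and -0.14 to 0.074 for Gabrb2. Other values kept their sign: without the 3 libraries numbered 2, Gabra4 was 0.19 and Gabrd -0.63 in cocaine against yoked, and leaving out 1 library gave 0.056 to 1.26 for Gabrd in cocaine against saline.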
